A study of Schizosaccharomyces pombe with 2 samples.

Results

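The 8 genes described here encode Rab GTPases, the small GTP-binding proteins that direct membrane traffic, in fission yeast (Schizosaccharomyces pombe). They were taken by gene name from the deposited tables: ypt1, ypt2, ypt3, ypt4, ypt5, ypt7, ypt71 and ryh1, 8 of 5113 protein-coding genes. The measurement was 3' READS, an RNA sequencing method whose reads each mark a poly(A) site, the place at which RNA is cut and given its tail. Both libraries, replicates A and B, came from exponentially growing wild-type cells (source name FWP9) kept at 30 °C in the rich medium YPD. With 1 group, genes and not conditions are compared. Whether A and B were separate cultures is not stated in the labels, and the spread between them may be technical.

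A Rab protein binds membranes through lipid groups added to its tail and switches between a GTP-bound active form and a GDP-bound inactive form. Exchange factors load the GTP, GTPase-activating proteins end the active state, and a chaperone and an escort protein carry the inactive form between membranes. In its active form a Rab recruits tethering complexes, which hold a vesicle at its target until SNARE proteins fuse the membranes. Rab proteins act at various steps of the secretory and endocytic routes. Several transcripts of one gene can differ in the length of the 3' untranslated region according to the poly(A) site used. The cutting machinery recognises, among other elements, the hexamer AATAAA (written as DNA) or a relative of it a short way upstream of the site.

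The most used site of each measured gene (on the average of both replicates) and its upstream bases are shown first, since the positions that follow are distances to such sites. Each sequence is the 30 bases that end at the site, read 5′ to 3′ on the transcript's strand from RefSeq assembly ASM294v3, whose stop codon coordinates equal those of the deposited tables for all 5113 coding genes. Capitals mark AATAAA, or a variant of it with 1 base changed (there are 18), that starts 10 to 40 nt upstream of the site, wherever it lies wholly inside the printed bases. For each gene with several groups of sites (clusters, defined with the widths), the top position of the most used other cluster is shown too, so that both can be compared. The ypt1 sites lie at II:2934069-2934098 and II:2934192-2934221 on the plus strand and the ypt7 site at II:3147144-3147173 on the minus strand. On chromosome I the plus-strand sites are ypt3 at 245 nt (I:2216973-2217002) and 323 nt (I:2217051-2217080), and ypt5 at 51 nt (I:2763412-2763441) and 162 nt (I:2763523-2763552). The minus-strand sites there are ypt4 at 157 nt (I:4949113-4949142) and 225 nt (I:4949045-4949074), and ypt71 at 114 nt (I:1880765-1880794) and 191 nt (I:1880688-1880717).
ypt1, site 57 nt after the stop codon: aatgcgcttttAATATAtttttatatacat
ypt1, site 180 nt after the stop codon: atacttatagaaagttatttgtaggtttgg
ypt3, site 245 nt after the stop codon: agcataattttatccccattcctatgcagc
ypt3, site 323 nt after the stop codon: gggttactttAATAGAgaatttgtccagat
ypt4, site 157 nt after the stop codon: ctatataattatgaccatatttactgaagg
ypt4, site 225 nt after the stop codon: ttaAATAATttatttgAATAATcgcacttt
ypt5, site 51 nt after the stop codon: tgttgaaAATTAAtggttctttgaatatgt
ypt5, site 162 nt after the stop codon: ttatttatggtAACAAAAAAtttgaacttt
ypt7, site 334 nt after the stop codon: tgatctagcaaAATGAAttctatttatatc
ypt71, site 114 nt after the stop codon: ttAACAAAactatggttactttctgttctt
ypt71, site 191 nt after the stop codon: aatagtcttttaattatgacctcagttaat

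AATAAA or such a variant preceded the most used site in 6 of 6 measured Rab genes, against 72.3% of all 3818 measured genes. The exact AATAAA preceded 0 of 6, against 20.8%. The variants were AATATA 18 nt upstream in ypt1, AATAGA 19 nt upstream in ypt3, AATTAA 22 nt upstream in ypt5, AATGAA 18 nt upstream in ypt7 and AACAAA 27 nt upstream in ypt71. In ypt4 the search window held 5 matches, of which AATAAT 26 nt and again 13 nt upstream lies wholly inside the printed bases. The ypt5 site at 162 nt has a pair of overlapping matches, AACAAA 18 nt and AAAAAA 15 nt upstream. Such letters are common in these AT-rich regions: 41.1% of all positions from 50 to 400 nt of the measured genes had a match in the same search window. At the Rab clusters that do not hold the most used position the hexamer stood before the top position of 2 of 10, both in ypt5, against 56.3% of such clusters in all measured genes. In ypt71 these 10 include the cluster with the most reads, at 179 to 212 nt. Among the 10 top positions, those at 157 and 328 nt in ypt4 and at 89 and 191 nt in ypt71 had reads in only 1 replicate. With each replicate's own most used position in place of the shared one, the count was 5 in replicate A and 5 in replicate B, because ypt71 peaked at 191 nt in A and ypt4 at 157 nt in B. A match is a description of the letters, and its use by the cutting machinery was not tested. The motif TGTANATA, which Puf RNA-binding proteins are known to bind, was searched on the transcript's strand of the 400 nt and was found in 1 of 8 Rab genes, ypt71, starting at 158 nt, against 11.4% of all coding genes.

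The tables cover the 400 nt after each stop codon, called the window here, and the read numbers are the deposited scaled signals divided by the value of 1 read. The windows held 50972160 reads in replicate A and 54744177 in replicate B over all genes. A gene counted as measured with at least 50 reads in each replicate, which 6 of 8 Rab genes and 74.7% of coding genes had. The Rab genes nearest to that limit were ypt4 above it, with 100 reads in A and 103 in B, and ryh1 below it, with 23 and 26. Since each read marks 1 transcript end, no correction for gene length was made when levels were compared. Reads copied during library amplification are not independent molecules, so all intervals cover counting error only.

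Read numbers of the Rab genes ranged from 0 to 8264. The Rab of traffic from the endoplasmic reticulum to the Golgi, ypt1, had 8264 reads in A and 6965 in B, which is 162 and 127 RPM (reads for every 1000000 reads in all windows of the replicate). The Rab11-family gene ypt3, which acts in the late secretory route and in cell division, had 6785 and 5089 reads, or 133 and 93.0 RPM. The value of ypt1 was higher in each replicate, but the ranges over replicates overlapped. Both stood far above the medians of 655 and 548.5 reads over all measured genes.

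The endosomal Rab5-type gene ypt5 had 1227 reads in A and 799 in B, or 24.1 and 14.6 RPM. The vacuolar Rab7-type gene ypt7, needed for vacuole fusion, had 677 and 457 reads, or 13.3 and 8.35 RPM. The ranges of these neighbours did not overlap, and ypt7 lay near the median gene. The second Rab7-type gene, ypt71, known to oppose ypt7 in vacuole shape, had 136 and 217 reads, or 2.67 and 3.96 RPM. The Rab4-type gene ypt4 had 1.96 and 1.88 RPM and lay below both values of ypt71. In all 6 genes the replicates differed by less than 2-fold, with ratios between 1.04 in ypt4 and 1.65 in ypt5, where 10.6% of all measured genes differed 2-fold or more. A comparison of 2 values with 2 cannot reach an exact two-sided permutation p below 0.333, so no pair of genes was tested.

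**Figure D1:**
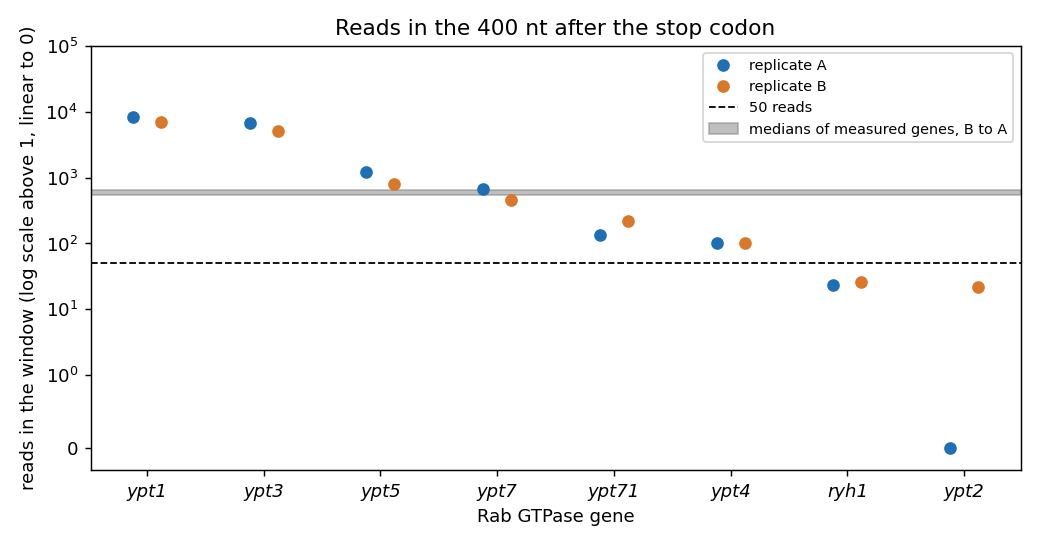
Reads in the 400 nt after the stop codon (vertical axis, logarithmic above 1 and linear below) for the 8 Rab GTPase genes, ordered by total, with 1 point per replicate. The dashed line is the limit of 50 reads and the grey band spans the medians of all measured genes. Only ypt2 and ryh1 lie under the limit, and ypt2 has 0 reads in replicate A.

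The Rab8-type gene ypt2, which acts in the last step of secretion, had 0 reads in replicate A, which allows up to 0.0589 RPM by counting error alone. In replicate B it had 22 reads, or 0.402 RPM, above that bound. Of these 22 reads, 10 lay at 221 nt and 8 at 229 nt. The Rab6-type gene ryh1, of retrograde traffic to the Golgi, had all 23 reads of replicate A at 383 nt, and 24 of 26 reads of replicate B at 381 nt. The annotated transcripts of both genes run beyond the window, to 1192 nt in ypt2 and 1495 nt in ryh1, so sites farther out could not be seen. A further such Rab gene is ypt4, with an annotated end at 729 nt. These 3 of 8 compare with 28.8% of all coding genes, and they had the 3 lowest read numbers among the Rab genes. Over all coding genes, 60.1% of those with an end past the window were measured, against 80.6% of those with an end inside it.

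Reads inside the open reading frame were few for most Rab genes. They came to 12 and 5 in ypt1, and to 0 and 0 in ypt4. Shares were taken of the reads in the frame and the window together, so reads past the window do not count. The share in ryh1, with an annotated end at 1495 nt, was 42.5% in replicate A (17 reads, 95% Wilson interval 28.5 to 57.8%). In replicate B it was 23.5% (8 reads, 12.4 to 40%). In ypt71 the shares were 12.3% in A (19 reads, 7.99 to 18.4%) and 3.56% in B (8 reads, 1.81 to 6.86%). The median gene had 0.396% and 0.922%.

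The mean position of the reads, weighted by reads, spread over most of the window. The order from the stop codon was ypt5 at 93.1 ± 6.11 nt, ypt1 at 112 ± 5.09 nt, ypt71 at 128 ± 6.35 nt, ypt4 at 214 ± 17.8 nt, ypt3 at 294 ± 4.65 nt and ypt7 at 335 ± 0.396 nt (SD, n = 2 replicates each). Of the 6 genes, 3 lay below the median gene at 143 nt and 3 above it, where 50% of all genes lie below by definition. They took ranks from 1064 for ypt5 to 3647 for ypt7 among the 3818 measured genes. The Rab median was 171 nt, a value between ypt71 and ypt4 and close to no single gene.

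The replicate values behind this order are as follows. In ypt5 they were 88.8 nt in A and 97.4 nt in B, and in ypt1 they were 116 and 109 nt. In ypt71 they were 124 and 133 nt, and in ypt4 they were 202 and 227 nt. In ypt3 they were 291 and 297 nt, and in ypt7 they were 336 and 335 nt. The ranges of all 15 pairs of genes were apart, the closest being ypt1 and ypt71. The share of such pairs among all measured genes is not given here. Replicates of the median measured gene were 5.18 nt apart, so narrow ranges are not particular to the Rab genes. Replicates came within 10 nt of each other in 5 of 6 Rab genes, against 66.1% of all measured genes, with ypt4 the exception at 25.1 nt. The kind of average matters. The most used position was 57 nt in ypt1 and 51 nt in ypt5, and the median read lay at 71.5 and 57 nt (mean of the replicates). In ypt3 the most used position was 323 nt. By most used position the ranges of ypt4 (225 nt in A, 157 nt in B) and ypt71 (191 and 114 nt) overlapped. Replicates came within 10 nt in 4 of 6 Rab genes by the median read, and in 4 of 6 by the most used position. The shares of all measured genes by these other averages are not given here, and the 66.1% holds for the mean position. By most used position 2 of 6 lay below the median gene.

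**Figure D2:**
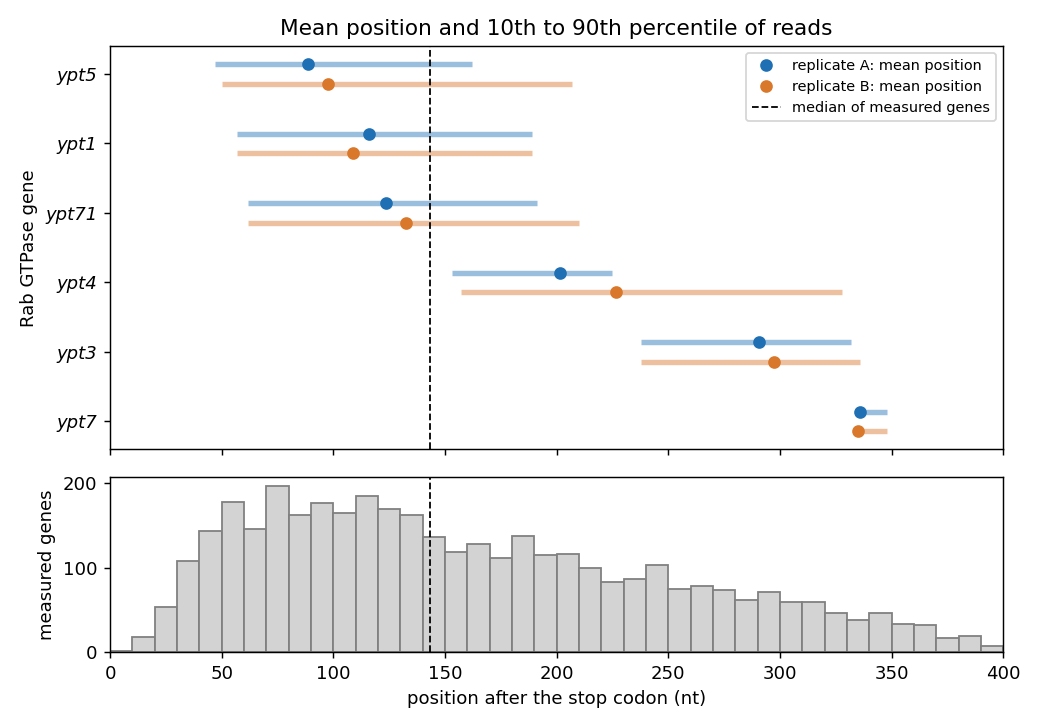
Mean position of the reads (points) and the span between their 10th and 90th percentiles (bars) for the 6 measured Rab GTPase genes in each replicate, above a histogram of the mean positions of all 3818 measured genes. The horizontal axis is the distance after the stop codon in nt, and the dashed line is the median gene at 143 nt. The genes fall from ypt5 near the stop codon to ypt7 at 335 nt, where the bars are shortest.

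Most Rab genes used sites spread over a long stretch. The width, the stretch between the 10th and 90th percentiles of the reads, was 132 nt in both replicates of ypt1, 94 and 98 nt in ypt3, 115 and 157 nt in ypt5, 129 and 148 nt in ypt71 and 72 and 171 nt in ypt4. It was 14 nt in both replicates of ypt7. The median width was 127 nt in the Rab genes and 62.5 nt in all measured genes, and 5 of 6 Rab genes were wider than that median (50% of all genes). Sites were joined into clusters where positions with at least 1% of the reads lay within 20 nt, and clusters with at least 5% of the reads were kept. By this rule 5 of 6 Rab genes had 2 or more clusters, against 63.6% of all genes, and 4 had 3 or more, against 29.5%. Of the 4 genes with 3 or more, ypt4 and ypt71 had a cluster with reads in only 1 replicate.

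**Figure D3:**
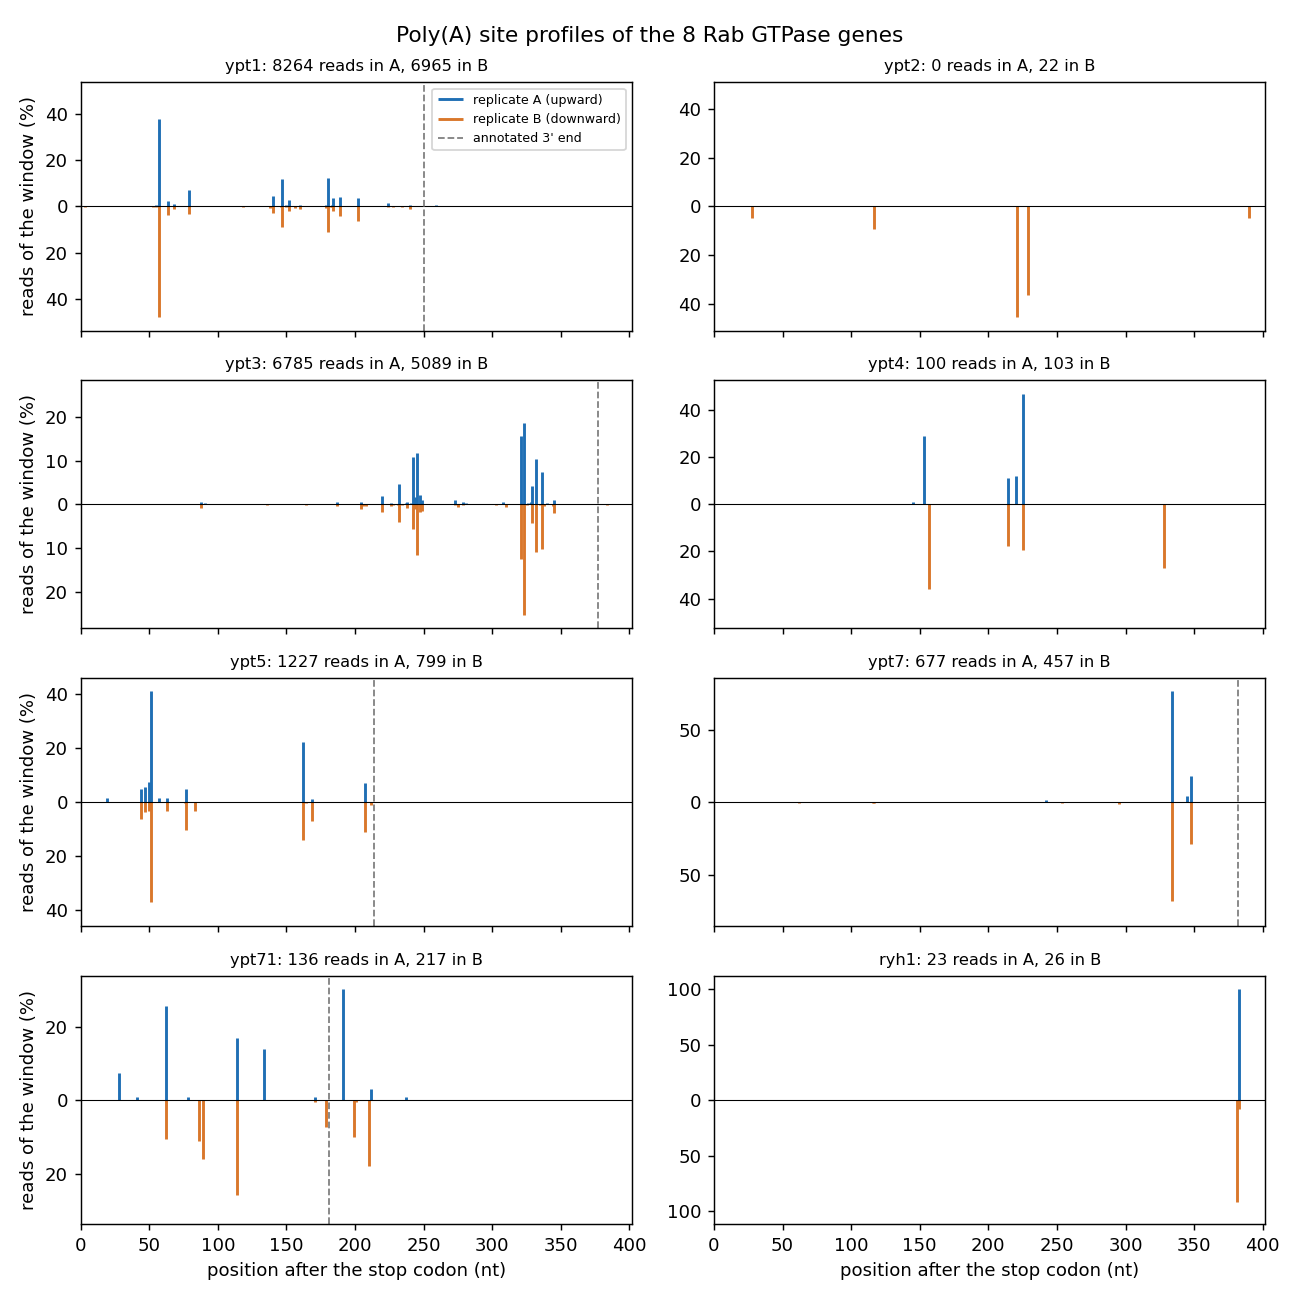
Share of a gene's reads at each position after the stop codon (horizontal axis, nt) for the 8 Rab GTPase genes, with replicate A drawn upward and replicate B downward. Dashed lines mark the annotated 3' end where it falls inside the window. The main peaks of ypt1, ypt3, ypt5 and ypt7 stand at the same positions in both replicates, whereas most peaks of ypt4 and ypt71 stand in 1 replicate.

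The early secretory gene ypt1 (SPBC1703.10, chromosome II, plus strand, stop codon ending at 2934041) had 3 clusters in both replicates. The first, at 57 to 79 nt, held 49.3% of the reads in A and 56.0% in B. Its main position, 57 nt, had 3133 and 3330 reads. The second, at 140 to 152 nt, held 19.9% and 14.5%, and the last, at 180 to 202 nt, held 24.6% and 24.0%. The cluster order was the same in both replicates, and no hexamer of the AATAAA family stood before the top positions of the second and the last. The annotated transcript ends at 250 nt, past which lay 45 reads in A and 0 in B.

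The late secretory gene ypt3 (SPAC18G6.03, chromosome I, plus strand, stop codon ending at 2216757) had its main sites far from the stop codon. The cluster at 321 to 345 nt held 58.8% in A and 66.5% in B, and the one at 220 to 249 nt held 36.1% and 28.7%. Within the far cluster the reads were divided among neighbouring positions, with 1059 and 639 reads at 321 nt, 1268 and 1294 at 323 nt, and 709 and 557 at 332 nt. The effective number of sites, the number of equally used positions that would give the same evenness, was 12.7 ± 1.02 in ypt3 (SD, n = 2), the highest of the 6 Rab genes. The median gene had 4.73. Only 0 and 2 reads lay past the annotated end at 377 nt.

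The endosomal gene ypt5 (SPAC6F6.15, chromosome I, plus strand, stop codon ending at 2763390) had a main cluster at 44 to 83 nt with 67.6% of the reads in A and 66.7% in B. A second at 162 to 169 nt held 23.4% and 21.3%. The single site at 207 nt held 7.09% and 11.1%, with 87 and 89 reads. The annotated end, at 214 nt, lies just past this last site, and most ypt5 reads lay well before it.

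The vacuolar gene ypt7 (SPBC405.04c, chromosome II, minus strand, stop codon ending at 3147478) was the one measured Rab gene with a single cluster. With a joining distance of 10 nt in place of 20 it was divided too, and 6 of 6 Rab genes had several. The share of all measured genes at 10 nt is not given here, and the 63.6% holds for 20 nt. By the 20-nt rule the ypt7 cluster lay at 334 to 348 nt and held 98.5% in A and 97.4% in B. The position at 334 nt had 517 and 312 reads, and the one at 348 nt had 121 and 133. The share of the position at 334 nt was 76.4% in A (95% Wilson interval 73.0 to 79.4%) and 68.3% in B (63.9 to 72.4%). The effective number of sites was 2.08 ± 0.0521 (SD, n = 2), the lowest of the 6.

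Its paralogue ypt71 (SPAPB1A10.10c, chromosome I, minus strand, stop codon ending at 1880879) had scattered reads, most of them between 28 and 212 nt. The position at 62 nt had 35 reads in A and 23 in B, and the one at 114 nt had 23 and 56. The position at 191 nt had 41 reads in A and 0 in B, whereas those at 89 and 210 nt had 0 in A and 35 and 39 in B. Compared in bins of 20 nt, the replicate profiles of ypt71 shared 41.3% of the reads, less than in all but 3.17% of measured genes, although the mean positions were 8.98 nt apart. Past the annotated end at 181 nt lay 46 reads in A, which is 33.8%, and 62 in B, which is 28.6%.

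In ypt4 (SPAC1B3.11c, chromosome I, minus strand, stop codon ending at 4949270) the position at 225 nt had 47 reads in A and 20 in B, and the one at 214 nt had 11 and 18. The position at 153 nt had 29 reads in A and 0 in B, and the one 4 nt farther had 0 and 37. At 328 nt there were 0 reads in A and 28 in B. The replicate profiles shared 66.9% of the reads. In the other 4 measured Rab genes they shared 85.1 to 90.9%, around the median gene at 85.9%.

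**Figure D4:**
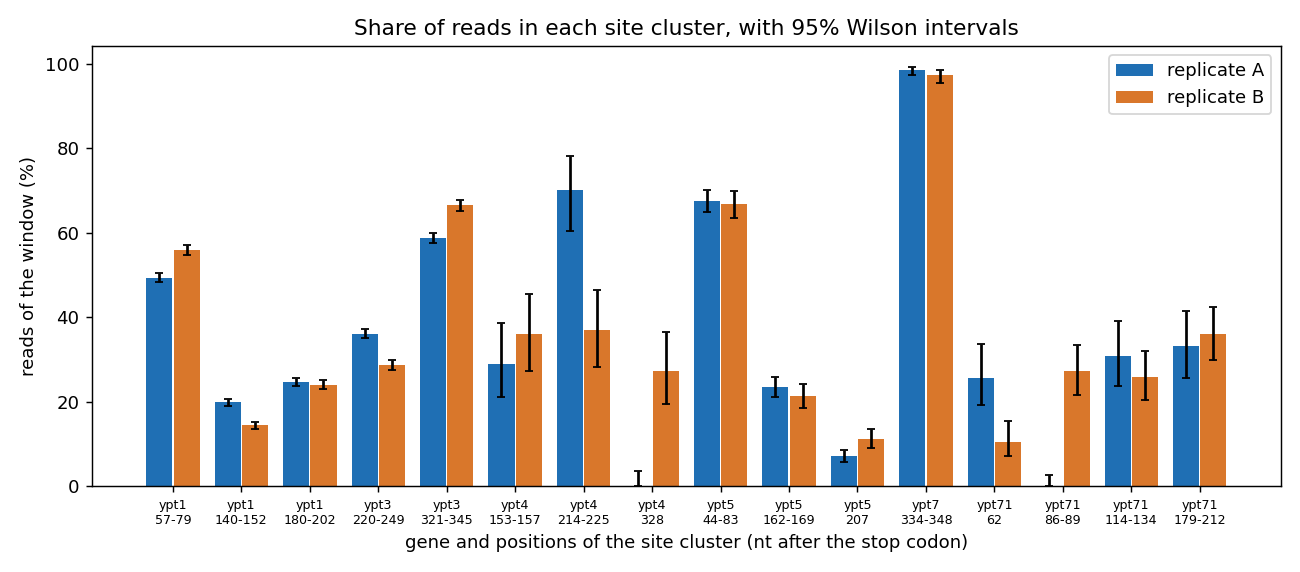
Share of the reads (vertical axis, percent of the window) in each site cluster of the 6 measured Rab GTPase genes, with 1 bar per replicate and 95% Wilson intervals that cover counting error only. Clusters are named by gene and by their first and last position after the stop codon. Replicate bars of ypt5 and ypt7 are close, whereas the clusters of ypt4 at 328 nt and of ypt71 at 86 to 89 nt have reads in replicate B and 0 in replicate A.

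Stacks of reads in 1 replicate were a general property of these libraries. Over all measured genes, 37.0% of the positions with at least 10 reads in a replicate had 0 in the other, a measure chosen after the values were seen. It was 53.4% in genes whose shallower replicate had under 250 reads, 38.7% in genes with at least 250 and under 5000, and 25.5% in genes with at least 5000. Among the Rab genes it was 8 of 10 positions in ypt71 and 4 of 6 in ypt4, both in the lowest class. It was 3 of 12 in ypt5 and 1 of 3 in ypt7, in the middle class, and 13 of 35 in ypt1 and 13 of 39 in ypt3, in the deepest. In ypt4 and ypt71 the difference between replicates at single positions was thus often larger than the Wilson intervals, which cover counting error only. The intervals were apart in deeper genes too, at the most used position. In ypt1 the share at 57 nt was 37.9% in A (36.87 to 38.96%) and 47.8% in B (46.64 to 48.98%). In ypt3 the share at 323 nt was 18.7% in A (17.78 to 19.63%) and 25.4% in B (24.25 to 26.64%). The intervals were also apart in ypt7 at 334 nt, but overlapped in ypt5 at 51 nt.

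Neighbouring genes touch some of the windows. No annotated gene on the same strand starts inside any of the 8. The next coding gene lies on the opposite strand for ypt3 (shm2), ypt4 (SPAC1B3.20), ypt5 (tpz1), ypt71 (ase1) and ryh1 (pud1), and on the same strand for ypt1 (opa3, coding sequence 941 nt away), ypt2 (SPAC9E9.06c, 1447 nt) and ypt7 (SPBC405.03c, 823 nt). The annotated transcript of shm2 overlaps the ypt3 window from 262 nt on, those of SPAC1B3.20 and ase1 overlap the ypt4 and ypt71 windows from 152 and 153 nt on, and that of tpz1 overlaps the whole ypt5 window. Opposite-strand noncoding RNAs are annotated in the windows of ypt7 (SPNCRNA.5987, 86 to 319 nt), ryh1 (SPNCRNA.2526, 21 to 232 nt) and ypt2 (SPNCRNA.4006, to 30 nt). Few reads of the Rab genes stood at coordinates where a coding neighbour had reads: 1.49% of ypt3 reads in A and 0.786% in B did so for shm2. For ypt4 and ypt5 it was 0 reads in both replicates, and for ypt71 0 in A and 7.37% in B. Every stretch of 25 nt in the 8 windows occurred once in the genome, so the 3' ends of these related genes are not near-identical copies.

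Relatedness of the proteins and likeness of the poly(A) profiles can be set side by side. From the annotated coding sequences the 8 proteins have 200 to 234 residues and share 27.9 to 59.8% of aligned residues in 28 pairs, with a median of 35.2%. The closest pair is ypt7 and ypt71, at 59.8% identity, and their poly(A) profiles shared 0.438% of the reads in 20-nt bins. The profile pairs with the most in common were ypt1 and ypt5 at 68.7%, both near the stop codon, and ypt3 and ypt7 at 63.5%, both far from it. Over the 15 measured pairs the overlap ran from 0.109 to 68.7%, with a median of 10.6%. No test was made across pairs, which share genes.

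Each measured Rab gene had a most alike gene among the other measured genes, by the same overlap of profiles averaged over 2 replicates. For ypt7 it was sar1, the small GTPase of COPII vesicle formation, at 91.9%, with a mean position of 331 nt. For ypt5 it was ypa1, a regulator of type 2A protein phosphatase, at 81.7%, and for ypt3 it was smi1, a glucan synthase adaptor, at 79.0%. For ypt4 it was tsc13, an enoyl reductase, at 73.2%, for ypt1 the ATPase gene rvb2 at 73.0%, and for ypt71 vma1, a subunit of the vacuolar proton pump, at 62.8%. A Rab gene's median overlap with all other genes was far lower, from 0.448% for ypt7 to 16.6% for ypt71. The best match among so many genes is high by selection. In ypt71, ypt4 and ypt7 it was above the share between the gene's own replicates, which was 41.3%, 66.9% and 90.9%. The overlap of ypt71 with vma1 was 70.1% in A and 55.5% in B.

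Genes that act with the Rab proteins were described by the same mean position. Of the chaperone and prenylation genes, 3 of 4 were measured, with a median of 48.2 nt and 2 of 3 below the median gene. Here mrs6, which encodes the Rab escort protein, had 22.6 nt in A and 25.2 nt in B. Of the exchange factor genes, 8 of the 13 found under their symbols were measured, 4 below the median gene and 4 above. They ran from trs65 at 45.3 ± 2.57 nt to trs20 at 299 ± 5.11 nt (SD, n = 2), both subunits of TRAPP complexes. Of the GTPase-activating genes, 5 of 6 were measured and 1 of 5 lay below the median gene. None of these 5 had replicates within 10 nt, against 66.1% of all measured genes that did.

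Downstream of the Rab switch, 11 of 15 tethering genes were measured, 6 below the median gene and 5 above it. Among those with close replicates, vps8 of the CORVET tether stood at 65.0 nt and sec6 of the exocyst at 284 nt. Of the SNARE genes 9 of 15 were measured, 2 below the median gene and 7 above it, with sec22 at 126 nt and sec9 at 297 nt. Of the other small GTPase genes 12 of 16 were measured, 2 below and 10 above, with arf1, the vesicle coat regulator, at 74.1 nt and rho3, a polarity GTPase, at 394 nt. The SD of these 6 genes ran from 0.0790 nt in sec22 to 6.32 nt in sec9 (n = 2). The medians were 128 nt for tethers, 121 nt for exchange factors, 174 nt for GTPase-activating genes, 212 nt for SNAREs and 259 nt for the other small GTPases, beside 171 nt for the Rab genes and 143 nt for all measured genes. Annotated ends lay past the window in 12 of 15 SNARE genes and 7 of 16 other small GTPase genes, against 28.8% of all coding genes. They did so in 4 of 15 tethering, 4 of 13 exchange factor, 3 of 6 GTPase-activating and 2 of 4 chaperone and prenylation genes. Sites past the window do not enter these positions. Wide site use was not particular to the Rab genes. The median width was 153 nt in SNARE genes (8 of 9 wider than the median gene), 133 nt in chaperone and prenylation genes (2 of 3) and 119 nt in tethering genes (6 of 11). It was 88 nt in GTPase-activating genes (3 of 5), 62.25 nt in other small GTPase genes (6 of 12) and 38.25 nt in exchange factor genes (3 of 8). Counts below, above or wider than a median have a background of 50%, and no list was tested.

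**Figure D5:**
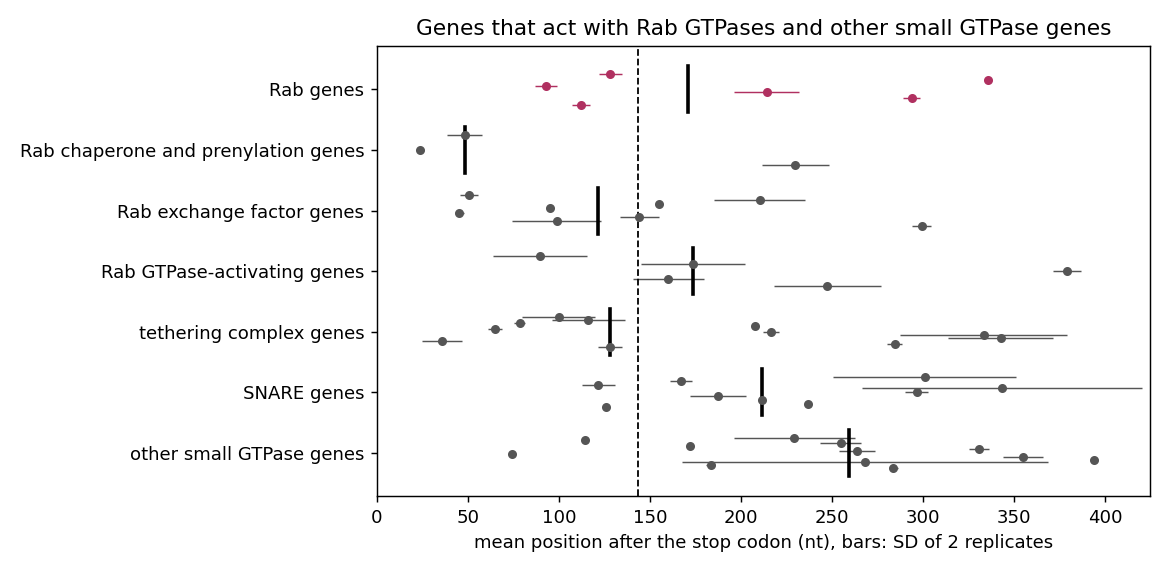
Mean poly(A) site position (horizontal axis, nt after the stop codon) of the measured Rab GTPase genes (red, top) and of 6 lists of related genes (grey), with bars for the SD of 2 replicates and a vertical stroke at each list's median. The dashed line is the median of all measured genes at 143 nt. The Rab genes lie on both sides of it, and 10 of 12 other small GTPase genes lie at or above it.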

How the data were processed

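Poly(A) sites were mapped by 3' READS in 2 libraries of 1 group. Bowtie was used, per the submitters' processing notes. Not given in the sources used here are its version and settings, the genome build, and the assignment of reads to strands. The authors deposited, per the file headers, read signal values for each gene (total in the window, most used position, open reading frame), positions as scores in nt after the stop codon, and the level at each position in percent of the highest.

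The deposited signal values were whole multiples of 0.930 in replicate A and 0.869 in replicate B. Within a tolerance of 0.1, 100% of values below 5000 were whole in both replicates, as were 100% of the 336 larger values in A and 99.7% of the 308 in B. Values were divided by this step to give reads. A count test was not run, because there is 1 group.

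Positions, widths, clusters, profile overlaps and hexamers were computed per replicate or on the average of the 2 profiles with Python 3.11.15, NumPy 2.4.6, pandas 2.3.3, SciPy 1.17.1 and Biopython 1.88. The mean position, the number and share of clusters and the value of 1 read were checked on simulated data. Widths, profile overlaps and hexamers were not checked in this way. Errors are the SD of 2 replicates. Coordinates and sequences come from RefSeq ASM294v3.

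The genes, the related lists and the measures were chosen with earlier results of these data known. Named besides the Rab genes are each measured one's most alike gene, the nearest and farthest gene of each list with replicates within 10 nt, and the next coding gene downstream. Alternatives tried were other read minimums, other averages, a shorter window, other cluster and hexamer settings, the authors' merged table and each replicate alone.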

Additional observations from a re-analysis of the deposited data

How the results depend on the processing

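No paired analysis was possible because there is only 1 group. Genes are paired by library, and the 6 measured Rab genes had the same order of mean positions in both. The median Rab position, 171 nt against 143 nt for all genes, depended on which genes entered. It was 203 nt against 140 nt with a minimum of 200 reads (4 Rab genes), 214 nt against 154 nt with no minimum (7 genes) and 128 nt against 127 nt over positions 1 to 300 (5 genes), where the difference was lost. With a minimum of 200 reads, 3 Rab genes had several clusters, because fewer genes were counted. AATAAA alone preceded 0 most used sites. From 1 replicate at a time, the median position was 163 to 180 nt, the median width 104.5 to 140 nt, several clusters were seen in 5 genes and the hexamer in 5. A gene's position moved by more than the replicate SD in 5 of 6 genes with the median read, in 6 of 6 with the most used position and in 2 of 5 over positions 1 to 300. Values from 1 replicate, or from the authors' merged table, lie within that SD by construction or nearly so and say nothing about stability. The fewest reads among measured Rab genes were those of ypt4 and ypt71, and the part of depth in their scatter was not tested.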
